A study of Mus musculus with 8 samples.

Results

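Chemokine ligands that T cells, NK cells and the leukocytes around them release were examined in endogenous CD8+ T cells separated by their IL-18Rα level. The group held 10 genes (Ccl1, Ccl3, Ccl4, Ccl5, Ccl6, Ccl9, Xcl1, Cxcl9, Cxcl10 and Cxcl16), found by exact gene name among the 47493 genes of the expression table. RNA was sequenced in 8 libraries, from the IL-18Rα hi-enriched and the flow-through cells of 4 female C57BL/6 mice aged 6 to 8 weeks at the start. All mice shared the same treatment. They received 200000 B16F10 melanoma cells on day 0, cyclophosphamide at 300 mg/kg on day 3, 2000000 Thy1.1+ Pmel-1 T cells, which recognize a melanoma antigen, on day 5, and 10000 IU of IL-2 daily for 3 days. A CD4-depleting antibody (clone GK1.5, 200 μg) was given weekly for 3 weeks from day 10. On day 25, CD8+ T cells of inguinal lymph nodes and spleen were purified by negative selection, a step meant to remove other cell types, and depleted of Thy1.1+ cells with beads to give endogenous (en-T) cells, and those bound by a PE-labeled IL-18Rα antibody were retained on a magnetic column as the enriched fraction. The cells that passed the column were the flow-through, so the fractions differ in bound antibody as well as in receptor level, and every value is a mean over all cells that the beads and column retained or let pass.

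Chemokines are small secreted proteins that direct leukocyte migration through G protein-coupled receptors. Activated CD8+ T cells and NK cells release CCL3, CCL4 and CCL5 together with XCL1, which calls in cross-presenting dendritic cells, while the interferon-induced ligands CXCL9 and CXCL10 attract CXCR3+ effector T cells. Several of the 10 genes are also made by myeloid cells, so a level in bead-purified cells need not come from T cells alone.

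Values are FPKM, fragments scaled by transcript length and library size, and levels are given for replicates 1 to 4 of each fraction in that order. Fold changes are limma estimates on log2(FPKM + 1), which understate the change of low genes, with p-values adjusted over the 12166 genes that had a mean of at least 1 FPKM over the 8 libraries. The separation was visible in Il18r1, the gene of the selected receptor, at 22.2 to 37.2 FPKM in the flow-through and 107 to 116 FPKM in the enriched libraries. CD8 T-cell genes (Cd3d, Cd3e, Cd3g, Cd247, Cd8a, Cd8b1, Lck and Zap70) summed to 1280 to 2430 FPKM in the flow-through and 2400 to 2580 FPKM in the enriched libraries. Flow-through replicate 1 was the lowest of these, and results were therefore also computed after the 8 T-cell genes had been brought to one level in all libraries (T-cell scaling). In this library 9 of the 10 ligands had their lowest level of all 8 libraries.

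Most of the ligands were higher in the IL-18Rα hi-enriched fraction. Of the 10 genes, 9 had a mean of at least 1 FPKM and were tested, and 7 of these were higher while 0 were lower at a limma adjusted p under 0.05. Unadjusted, 8 were higher and 0 lower. Over all tested genes the same rule called 14.1% higher and 13.7% lower. Cxcl9 was tested only through its enriched level, and among the 8 ligands with a flow-through mean of at least 1 FPKM, 6 were higher. The median log2 fold change of the tested ligands was 1.11, where that of all tested genes was -0.02. In each of the 4 replicate numbers the enriched library exceeded the flow-through library for 10 of 10 ligands. This includes the 9 tested ligands, where 29.2% of all tested genes did so. Less RNA per cell and fewer cells that make a ligand cannot be told apart in these bulk libraries.

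**Figure D1:**
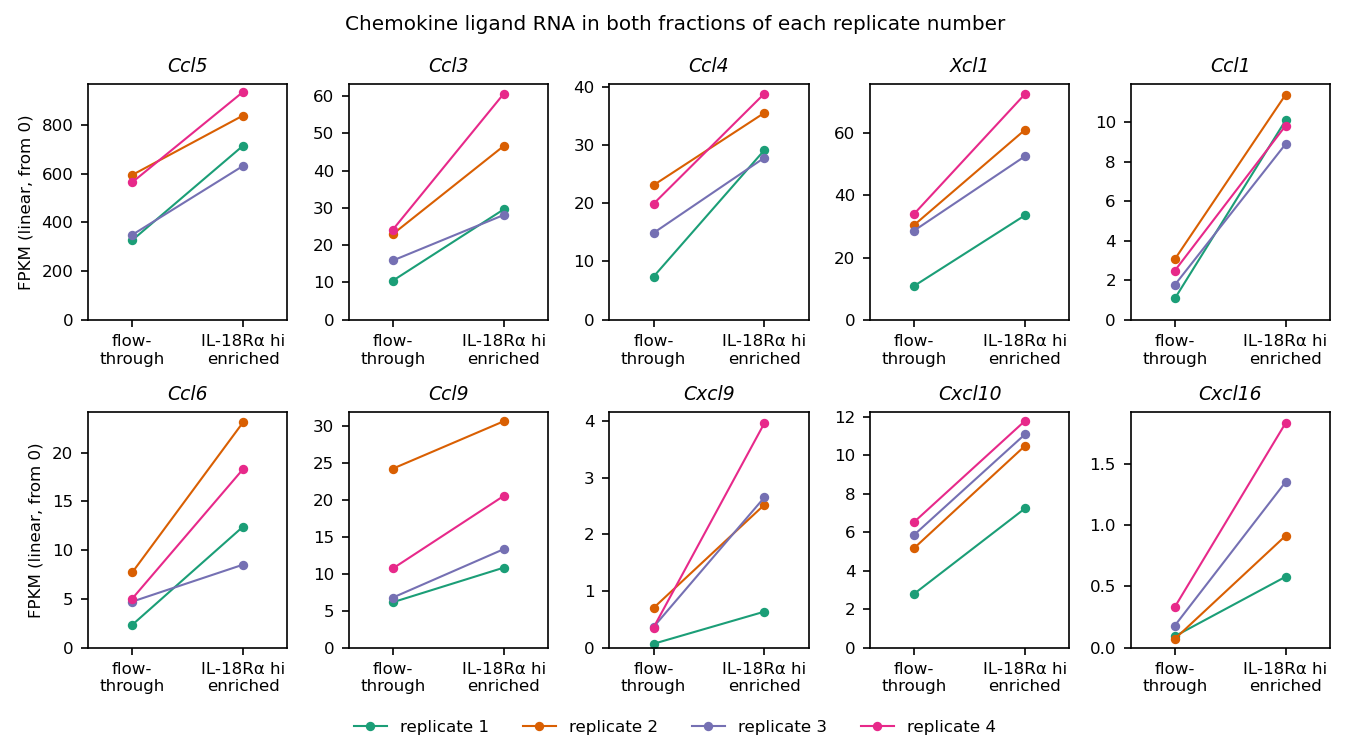
Level of each ligand (y axis, FPKM, linear, from 0) in the flow-through and the IL-18Rα hi-enriched library, with a line joining the 2 libraries of 1 replicate number. Every line rises from left to right, and flow-through replicate 1 is the lowest point in 9 of the 10 panels.

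Each mouse gave both fractions. A fit that blocked on the mouse called 9 of 9 tested ligands higher, where 22.2% of all genes were. T-cell scaling left 4 of 9 higher (Ccl1, Ccl4, Ccl6 and Cxcl9), against 4.34% of all genes. These counts include Cxcl9, which passed the filter only through its enriched level. Among the 8 ligands with a flow-through mean of at least 1 FPKM, 8 were higher with the block and 3 under T-cell scaling. With the block added to that scaling 6 of 9 were higher, Cxcl9 again among them, against 5.08% of all genes. Leaving out single libraries without a block left 1 to 8 ligands higher, with the lowest counts (1, 2, 3 and 4) when enriched replicate 4, enriched replicate 2, flow-through replicate 3 or enriched replicate 3 was left out. The scaling moved the median of all genes to -0.33 and that of the ligands to 0.78. Among all called genes the share that was higher went from 50.8% to 32.8%, or to 21.2% with the block added.

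**Figure D2:**
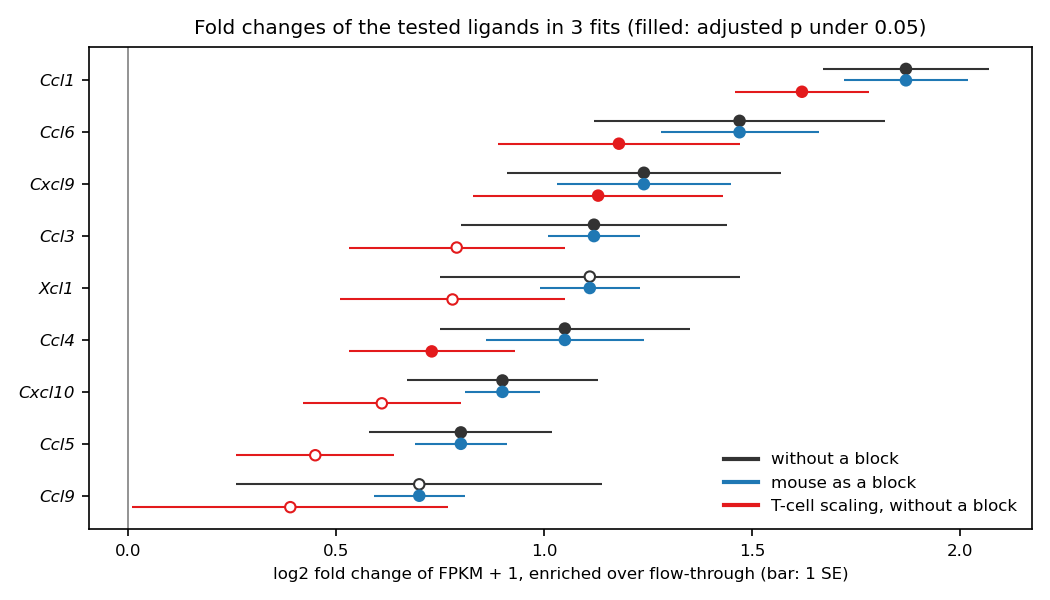
Log2 fold change of FPKM + 1, enriched over flow-through (x axis), of the 9 tested ligands from 3 limma fits, with bars of 1 SE and filled points at an adjusted p under 0.05. Estimates without and with the mouse as a block coincide while the bars shorten with it, and T-cell scaling moves every estimate toward 0.

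The promoters of 4 ligands are printed because the results turn on these genes. Ccl1 had the largest log2(FPKM + 1) fold change among the tested ligands, the calls of Xcl1 and Ccl9 depended on the block, and Cxcl10 is the interferon-induced ligand with the most motif matches. RefSeq (GRCm38.p6) promoter windows, 250 bases before to 50 bases after the start, were found for 7 of the 10 genes, and not for Ccl4, Ccl5 and Cxcl16. Each line below gives the 250 bases before the start, 5′ to 3′ on the minus strand, which carries all 4 genes. Capitals mark matches on either strand to a T-box motif (GGTGTGA), an AP-1 site (TGANTCA) or the NF-kB consensus, and a GAS site (TTCNNNGAA) was looked for as well.
Cxcl10 (chr5:92348890-92349139): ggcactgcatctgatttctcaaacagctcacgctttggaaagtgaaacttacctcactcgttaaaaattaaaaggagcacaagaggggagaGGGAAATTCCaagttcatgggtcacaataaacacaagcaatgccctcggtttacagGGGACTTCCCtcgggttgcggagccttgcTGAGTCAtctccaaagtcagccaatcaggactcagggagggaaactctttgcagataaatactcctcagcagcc
Ccl9 (chr11:83578637-83578886): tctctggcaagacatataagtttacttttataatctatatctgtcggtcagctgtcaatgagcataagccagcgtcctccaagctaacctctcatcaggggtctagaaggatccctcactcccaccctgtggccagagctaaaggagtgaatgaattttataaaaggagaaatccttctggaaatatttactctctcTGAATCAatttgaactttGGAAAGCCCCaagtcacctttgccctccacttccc
Xcl1 (chr1:164935523-164935772): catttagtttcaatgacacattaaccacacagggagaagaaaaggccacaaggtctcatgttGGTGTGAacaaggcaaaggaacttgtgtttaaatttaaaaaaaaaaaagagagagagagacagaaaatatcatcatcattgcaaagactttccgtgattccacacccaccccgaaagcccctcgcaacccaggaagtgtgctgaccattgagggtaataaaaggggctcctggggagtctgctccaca
Ccl1 (chr11:82179813-82180062): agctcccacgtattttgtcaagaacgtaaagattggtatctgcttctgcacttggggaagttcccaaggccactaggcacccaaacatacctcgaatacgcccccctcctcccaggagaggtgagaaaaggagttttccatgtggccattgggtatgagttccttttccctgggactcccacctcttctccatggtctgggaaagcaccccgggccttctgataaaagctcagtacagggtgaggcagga

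In Cxcl10 the NF-kB matches began 159 and 103 bases and the AP-1 match 74 bases before the start. In Ccl9 an AP-1 match began 53 bases and an NF-kB match 35 bases before it. Xcl1 held 1 T-box match, which began 188 bases before the start. Cxcl9 held an AP-1 match 32 bases after the start, and the windows of Ccl1, Ccl3 and Ccl6 held no match to any of the 4 motifs. Among 32851 promoters of 300 bases, 3.98% held the T-box, 7.81% the AP-1, 8.3% the GAS and 4.51% the NF-kB motif. These matches describe letters and were not tied to binding.

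CCL1 is the ligand of CCR8, a receptor of activated and regulatory T cells. Ccl1 (chromosome 11, minus strand, 3 transcripts) was at 1.08, 3.07, 1.77 and 2.49 FPKM in the flow-through and at 10.1, 11.4, 8.9 and 9.83 FPKM in the enriched libraries. The lowest enriched library stood well above the highest flow-through library, and the enriched libraries lay close together. Its mean rose from 2.1 ± 0.866 to 10.0 ± 1.02 FPKM (SD, n = 4 each), a ratio of 4.78. By the ratio of means, the low ligands Cxcl16 (6.94) and Cxcl9 (6.59) stood above it, and with a pseudocount of 0.1 the log2 estimate of Cxcl9 (2.40) was also above that of Ccl1 (2.29). On the log2 scale limma put the change at 1.87 (SE 0.20, adjusted p = 0.00091), and at 1.62 under T-cell scaling (adjusted p = 0.00094). Ccl1 remained higher in each of the 8 fits that left out 1 library, with estimates from 1.69 to 2.02.

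The largest cluster of the ligands lies on chromosome 11 (GRCm38), where Ccl5 (83525778 to 83530518), Ccl9 (83572919 to 83578636), Ccl6 (83587882 to 83593087) and Ccl3 (83647844 to 83649355) are on the minus strand and Ccl4 (83662584 to 83664683) on the plus strand. All 5 are protein-coding. Ccl5, Ccl3 and Ccl4 encode ligands that draw in T cells, monocytes and NK cells, and CCL3 and CCL5 bind CCR1.

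Ccl5, which memory CD8+ T cells and NK cells hold as ready-made transcript, was the most abundant of the ligands. It was at 327, 595, 349 and 565 FPKM in the flow-through and 715, 839, 632 and 936 FPKM in the enriched libraries. The fractions did not overlap, although the lowest enriched library (replicate 3) was close to the highest flow-through library (replicate 2). The mean rose from 459 ± 141 to 781 ± 134 FPKM, a ratio of 1.7. Its change of 0.80 on the log2 scale (SE 0.22, adjusted p = 0.030 by limma) was the smallest among the ligands called higher. Under T-cell scaling it was 0.45 (adjusted p = 0.12, or 0.083 with the mouse as a block), which no longer passed the threshold. The call was also lost, at log2 estimates of 0.65 to 0.84, when flow-through replicate 1 (0.65) or 3 (0.69) or enriched replicate 1 (0.84), 2 (0.76) or 4 (0.71) was left out.

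Ccl3 encodes an inflammatory chemokine of activated lymphocytes and macrophages. Its flow-through levels were 10.5, 23.0, 15.9 and 24.2 FPKM and its enriched levels 29.6, 46.6, 28.1 and 60.6 FPKM. Enriched replicates 2 and 4 were the high libraries, and no enriched library fell into the flow-through range. From a mean of 18.4 ± 6.43 FPKM it rose to 41.2 ± 15.4 FPKM, or by 1.12 on the log2 scale (SE 0.32, adjusted p = 0.031 by limma). T-cell scaling gave 0.79 (adjusted p = 0.067), and with the mouse as a block as well the adjusted p was 0.020. Leaving out flow-through replicate 1 (0.89) or 3 (1.07) or enriched replicate 2 (1.04) or 4 (0.91) also ended the call, with adjusted p-values of 0.051 to 0.085.

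Ccl4, the neighbor of Ccl3, is released with it by stimulated T cells. It was at 7.4, 23.1, 14.9 and 19.9 FPKM in the flow-through and 29.1, 35.5, 27.8 and 38.8 FPKM in the enriched libraries. Flow-through replicate 1 was the low library here, and the fractions did not overlap. The mean rose from 16.3 ± 6.85 to 32.8 ± 5.24 FPKM. On the log2 scale this was 1.05 (SE 0.30, adjusted p = 0.033 by limma), and 0.73 under T-cell scaling (adjusted p = 0.043). It was not past the threshold without flow-through replicate 3 (1.05), nor when enriched replicate 1 (1.11), 2 (1.01), 3 (1.13) or 4 (0.97) was left out. Within libraries the log2 ratio of Ccl4 to Ccl3 averaged -0.201 ± 0.203 for flow-through and -0.263 ± 0.299 for enriched libraries. This difference of -0.0624 was smaller than the spread between replicates (exact two-sided permutation p = 0.771).

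CCR1 is also the receptor of CCL6 and CCL9, a pair of rodent chemokines made mainly by myeloid cells. Ccl6 was at 2.33, 7.71, 4.71 and 5.02 FPKM in the flow-through and 12.4, 23.1, 8.5 and 18.3 FPKM in the enriched libraries. Replicate 2 was the highest library of either fraction, and the ranges did not overlap. The mean rose from 4.94 ± 2.2 to 15.6 ± 6.41 FPKM. On the log2 scale the estimate was 1.47 (SE 0.35, adjusted p = 0.017 by limma), and 1.18 under T-cell scaling (adjusted p = 0.031). With enriched replicate 4 left out it missed the threshold (1.37, adjusted p = 0.051). E230016K23Rik, which overlaps Ccl6 on the opposite strand, was at most at 0.513 FPKM.

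Ccl9 was at 6.13, 24.2, 6.76 and 10.7 FPKM in the flow-through and 10.8, 30.6, 13.3 and 20.5 FPKM in the enriched libraries. Replicate 2 was far above the other libraries of its fraction on both sides, so that the ranges overlapped. The means were 12.0 ± 8.43 and 18.8 ± 8.86 FPKM, and the log2 estimate was 0.70 (SE 0.44, adjusted p = 0.26 by limma, exact two-sided permutation p = 0.229). With the mouse as a block the SE was 0.11 and Ccl9 was higher (adjusted p = 0.0032), and the log2 difference within single mice lay between 0.32 and 0.88. Leaving out flow-through replicate 2 also brought it past the threshold (1.09). Under T-cell scaling with the block Ccl9 was not past the threshold (adjusted p = 0.24). The log2 ratio of Ccl6 to Ccl9 went from -1.01 ± 0.449 to -0.239 ± 0.329, a difference of 0.771 that was higher in 3 of 4 mice (exact two-sided permutation p = 0.0571, adjusted over 4 such values 0.171).

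XCL1, or lymphotactin, is made by activated CD8+ T cells and NK cells and binds XCR1 on cross-presenting dendritic cells. Xcl1 (chromosome 1, 164931644 to 164935527, minus strand) was at 10.9, 30.5, 28.7 and 34.1 FPKM in the flow-through and 33.6, 61.1, 52.6 and 72.6 FPKM in the enriched libraries. Replicate 1 was the lowest library of each fraction, and enriched replicate 1 lay just below flow-through replicate 4, the only overlap. The means were 26.0 ± 10.4 and 55.0 ± 16.4 FPKM, a ratio of 2.11. With a log2 fold change of 1.11 (SE 0.36), Xcl1 just missed the threshold without a block (limma adjusted p = 0.052, exact two-sided permutation p = 0.0571). The mouse as a block reduced the SE to 0.12, and Xcl1 was then higher (adjusted p = 0.00078), also under T-cell scaling (adjusted p = 0.019). It passed without a block when flow-through replicate 1 (0.75) or 4 (1.27) or enriched replicate 1 (1.32) was left out. Gm20743 overlaps Xcl1 on the opposite strand and was at 0.215 to 1.89 FPKM.

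CXCL9 and CXCL10 are the interferon-induced ligands of CXCR3, and their genes are neighbors on chromosome 5. Cxcl10 (92346638 to 92348889, minus strand) was at 2.8, 5.18, 5.87 and 6.54 FPKM in the flow-through and 7.24, 10.5, 11.1 and 11.8 FPKM in the enriched libraries. The fractions did not overlap, and replicate 1 was the lowest library of each. Its mean rose from 5.1 ± 1.63 to 10.2 ± 2.02 FPKM, which was 0.90 on the log2 scale (SE 0.23, adjusted p = 0.022 by limma). T-cell scaling brought it to 0.61, past the threshold neither without the block (adjusted p = 0.058) nor with it (0.059). Leaving out enriched replicate 2 (0.88), 3 (0.85) or 4 (0.83) ended the call as well. Art3, which overlaps it on the opposite strand, was at 0.29 to 1.35 FPKM.

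Cxcl9 (92321347 to 92328079, minus strand) was much lower, at 0.0659, 0.699, 0.363 and 0.353 FPKM in the flow-through and 0.633, 2.52, 2.65 and 3.96 FPKM in the enriched libraries. Enriched replicate 1 lay within the flow-through range, and the other 3 enriched libraries were above it. Limma gave 1.24 on the log2 scale (SE 0.33, adjusted p = 0.024), while the exact two-sided permutation p was 0.0571. As Cxcl9 passed the filter on low values only through the fraction where it was high, this test adds little to the levels themselves. The call was lost without flow-through replicate 3 (1.24) and when enriched replicate 2 (1.19), 3 (1.18) or 4 (1.03) was left out. The log2 ratio of Cxcl10 to Cxcl9 averaged 2.13 ± 0.327 for flow-through and 1.79 ± 0.402 for enriched libraries (difference -0.341, exact two-sided permutation p = 0.200, adjusted 0.267). This value followed the pseudocount, at -1.37 with 0.1 and 0.14 with 5.

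CXCL16, a membrane-bound ligand of CXCR6 that can be shed, had the lowest level. Cxcl16 (chromosome 11, 70453983 to 70459984, minus strand) was at 0.0923, 0.0704, 0.179 and 0.331 FPKM in the flow-through and 0.577, 0.911, 1.35 and 1.83 FPKM in the enriched libraries. The fractions did not overlap (exact two-sided permutation p = 0.0286, the smallest that 4 libraries against 4 can give), but its mean over all libraries was below 1 FPKM and it was not among the genes tested with limma. Zmynd15 overlaps it on the opposite strand and went from 0.0629 to 0.0902 FPKM in the flow-through to 0.192 to 0.433 FPKM in the enriched libraries. The flow-through levels of both genes were thus of similar size, and reads of one could have been counted for the other. In all, 6 of the 9 tested ligands did not overlap between the fractions, where 16.4% of all tested genes did not with the enriched libraries higher. The same held for 5 of the 8 CD8 T-cell genes, so this separation was not particular to the ligands.

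Because FPKM is scaled by length, levels can be ordered between the ligands. In both fractions Ccl5 was highest, followed by Xcl1, Ccl3, Ccl4 and Ccl9, with Cxcl9 and Cxcl16 at the end. Cxcl10 came before Ccl6 in the flow-through and after it in the enriched fraction. Of neighbors in this order, only Ccl5 and Xcl1 at the top and Ccl1 and Cxcl9 near the end had ranges that did not overlap, in either fraction. Even so, Xcl1 exceeded Ccl3 in all 4 libraries of each fraction.

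The summed level of the 10 ligands was 368, 713, 428.3 and 669 FPKM in the flow-through and 848.6, 1062, 786 and 1174 FPKM in the enriched libraries. Ccl5 made up 88.8, 83.5, 81.5 and 84.5% of this sum in the flow-through and 84.2, 79.1, 80.4 and 79.7% in the enriched libraries. Its share was lower in the enriched library of all 4 mice, by 3.73 percentage points on average (84.6 ± 3.07% against 80.8 ± 2.31%). The ranges overlapped, and this difference did not pass the test (exact two-sided permutation p = 0.0857, adjusted 0.171). Apart from Ccl5, Xcl1 held the largest mean share (4.76 and 5.65%), and the mean share of Ccl1 was 0.377% among flow-through and 1.06% among enriched libraries.

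**Figure D3:**
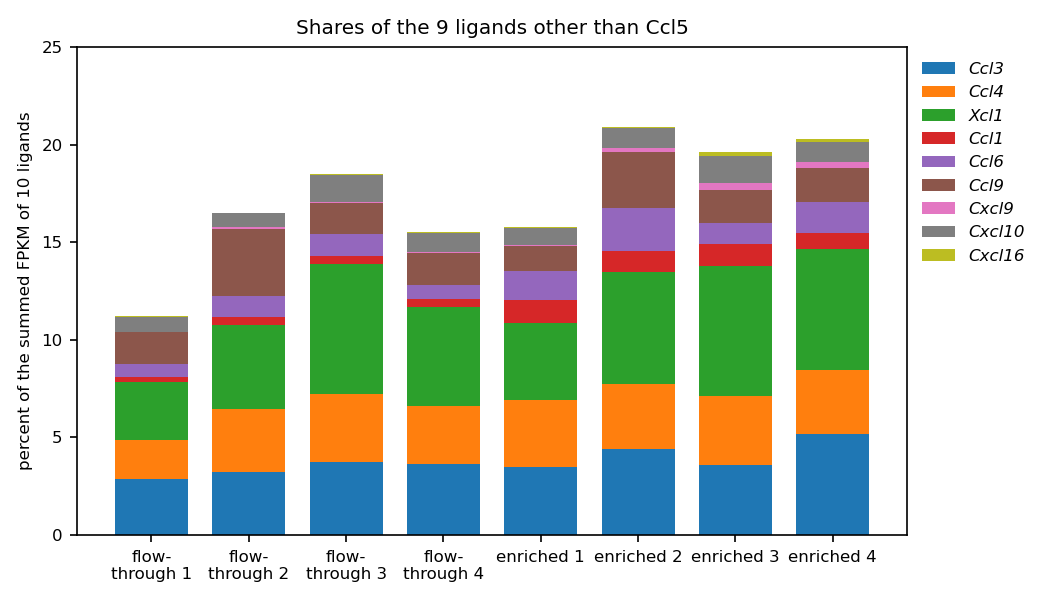
Share of each of the 9 ligands other than Ccl5 in the summed FPKM of all 10 ligands (y axis, percent, stacked from 0), for each library. The stacks reach from 11.2 to 18.5% in the flow-through and from 15.8 to 20.9% in the enriched libraries, and Xcl1, Ccl3 and Ccl4 fill most of each stack.

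Genes whose levels followed a ligand most closely were sought among 9649 tested genes of at least 5 FPKM in one fraction, by the root mean square difference of centered log2(FPKM + 1) over the 8 libraries. Centering kept the difference between the fractions, so a similar fold change brings genes close. For Ccl1 the nearest genes were Lgals3 (0.06), Il18r1 (0.118), the gene of the receptor used for the separation, and S100a6 (0.123). Ccl5 was followed most closely by 1700025G04Rik (0.105), Tmem156 (0.105) and Ifitm1 (0.12), and Ccl4 by Gm2a (0.111), Ly6a (0.136) and Plek (0.137). For Cxcl10 they were Pear1 (0.083), Tnfrsf9 (0.102), which encodes the costimulatory receptor 4-1BB, and the interferon-induced Mx1 (0.11). Ccl6 was matched less closely, by Gpr15 (0.217), Itgam (0.22) and Lyz2 (0.225), of which Itgam and Lyz2 are myeloid genes. The nearest genes of Ccl3 were Ptpro (0.172), Kmo (0.176) and Lgmn (0.176), and those of Cxcl9 were Sdc3 (0.197), Fgd2 (0.224) and Ppt1 (0.224).

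Receptors of these ligands were higher in the same fraction. Of the 6 receptor genes examined 5 were tested, and 5 were higher without a block, with the block and under T-cell scaling, where 14.1%, 22.2% and 4.34% of all genes were. Counting only receptors with a flow-through mean of at least 1 FPKM, 3 of 3 were higher in these fits. Each fit that left out 1 library called the same number, 5. Ccr8, the receptor of CCL1, was at 1.55, 2.72, 1.87 and 3.26 FPKM in the flow-through and 11.4, 14.3, 12.8 and 14.7 FPKM in the enriched libraries, a change of 2.12 on the log2 scale (SE 0.17, adjusted p = 0.00029 by limma). On the log2(FPKM + 1) scale Ccl1 and Ccr8 had the largest estimates of their lists, while Xcr1 exceeded Ccr8 by the ratio of means (6.9 against 5.65) and with a pseudocount of 0.1 (2.73 against 2.50). Cxcr3, which binds CXCL9 and CXCL10, rose from 61.5 ± 12.3 to 177 ± 12.2 FPKM (log2 fold change 1.53), and Cxcr6, which binds CXCL16, from 45.8 ± 14.6 to 111 ± 9.4 FPKM (1.33). Ccr1 (0.848 ± 0.464 and 2.79 ± 0.82 FPKM, 1.04) and Xcr1 (0.688 ± 0.35 and 4.75 ± 1.38 FPKM, 1.76) had flow-through means under 1 FPKM and passed the filter only through the enriched fraction. Ccr3 was not tested, with 0.148 and 0.731 FPKM on average. Xcr1 marks cross-presenting dendritic cells rather than T cells, and Clec9a, another marker of these cells, was at 2.39 and 9.65 FPKM. Of the 7 dendritic cell markers examined only Zbtb46 had a lower enriched mean, at 4.70 and 3.70 FPKM (log2 fold change -0.23, limma adjusted p = 0.41). The cells that carried Xcr1 were not determined.

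**Figure D4:**
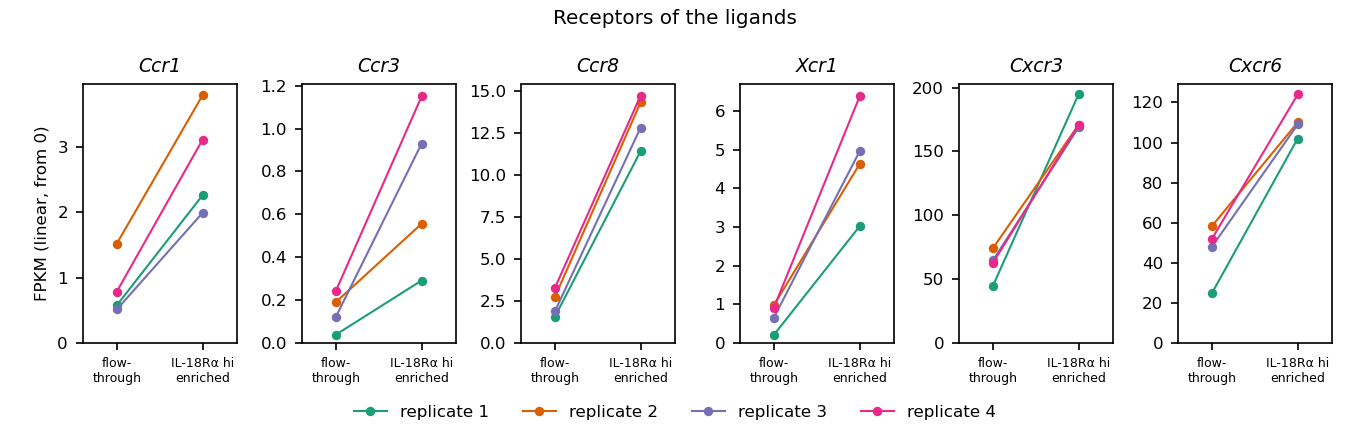
Level of 6 receptors of the ligands (y axes, FPKM, linear, from 0) in the flow-through and the IL-18Rα hi-enriched libraries, with lines joining libraries of 1 replicate number. All lines rise and no panel has overlapping fractions, with Ccr8 going from 1.55 to 3.26 FPKM in the flow-through to 11.4 to 14.7 FPKM in the enriched libraries.

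Most other chemokine ligands were at low levels, and none of those tested was called in either direction without a block or T-cell scaling. Of 29 further ligands 10 were listed at 0 in every library, and 4 were tested. These were Pf4, a platelet chemokine (9.45 ± 2.9 and 7.22 ± 1.36 FPKM), Ccl25, which guides cells to thymus and gut (2.68 ± 0.53 and 2.72 ± 0.47 FPKM), the neutrophil attractant Cxcl2 (2.08 ± 1.19 and 2.17 ± 0.887 FPKM), and Ccl27a (3.86 ± 1.03 and 2.9 ± 0.962 FPKM), whose name several table entries share. Their log2 fold changes ran from -0.33 to 0.10, and limma called 0 higher and 0 lower, at an unadjusted p under 0.05 as well as adjusted. Under T-cell scaling Pf4 was lower (-0.61, adjusted p = 0.038). Among cytokines that T cells release with chemokines, 6 of 7 were higher, where 14.1% of all genes were, or 4 of the 5 with a flow-through mean of at least 1 FPKM, which leaves out Il2 and Csf2. Among them were Ifng (8.86 ± 2.85 to 23.7 ± 4.34 FPKM, log2 fold change 1.35) and Tnf (12.3 ± 3.68 to 24.5 ± 2.41 FPKM, 0.99). Ltb was at 266 ± 61.4 and 270 ± 16.8 FPKM. Under T-cell scaling 3 of the 7, or 2 of these 5, were higher, where 4.34% of all genes were.

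Some markers of other cells that make these chemokines were higher in the enriched fraction too, in shares to be read against the 14.1% of all genes, or 22.2% with the mouse as a block. Of 9 tested NK-cell markers 7 were higher (9 with the block). Tyrobp and Klra7 were not called without the block (limma adjusted p = 0.053 and 0.055), and Klra4 was not tested. The NK-cell list summed to 88.5 to 261 FPKM in the flow-through and 256 to 540 FPKM in the enriched libraries. Most of each sum came from the adaptor genes Tyrobp (104 and 221 FPKM on average) and Fcer1g (49.0 and 108 FPKM). The sum therefore follows these adaptors more than the receptor genes of the list. Both adaptors had ranges that overlapped between the fractions. Ncr1, the NK-cell receptor gene with the largest log2 fold change of the list (2.68), went from 1.66 to 16.8 FPKM on average. Whether NK cells or the CD8+ T cells themselves carried these NK-cell genes was not tested. Macrophage and monocyte markers (4 of 9 higher, 8 with the block) summed to 460 to 1190 and 1040 to 1860 FPKM, and Lyz2 rose from 197 to 506 FPKM. The largest part of these sums was Ly6c2 (563 and 736 FPKM on average), which was not called (log2 fold change 0.44, limma adjusted p = 0.22). Csf1r, Fcgr1, Cd14 and Ms4a6c were not called either without the block. Mast cell and basophil markers (2 of 5 higher, 4 with the block) summed to 81.7 to 260 and 257 to 597 FPKM, and dendritic cell markers (6 of 7 higher, 6 with the block) to 16.8 to 29.4 and 42.1 to 85.5 FPKM. Most of the mast cell and basophil sum was Mcpt8 (49.7 and 132 FPKM on average) and Prss34 (69.0 and 209 FPKM), the 2 called genes. Cpa3, Fcer1a and Ms4a2 were not called without the block (limma adjusted p = 0.29, 0.056 and 0.81). In γδ T-cell markers 2 of 6 were higher (5 with the block), with sums of 67.5 to 94.7 and 87.6 to 186 FPKM, in CD4 T-cell markers 2 of 2 (2 with the block, 1.43 to 5.68 and 7.66 to 26.9 FPKM) and in NKT and MAIT cell markers 1 of 2 (2 with the block, 1.26 to 8.38 and 8.96 to 10.9 FPKM). The NKT and MAIT cell sum was mostly Trav1 (3.60 and 7.88 FPKM on average). Zbtb16 (0.405 and 1.93 FPKM), the gene called without the block, passed the filter only through the enriched fraction. Trav11 was not tested, and went the other way, at 1.08 FPKM in flow-through replicate 4 and 0 in all other libraries. Among markers with a flow-through mean of at least 1 FPKM, 5 of 7 NK-cell, 3 of 7 macrophage and monocyte, 2 of 5 γδ T-cell, 1 of 1 CD4 T-cell (Foxp3) and 0 of 1 NKT and MAIT cell markers (Trav1, adjusted p = 0.053) were higher by limma without the block. Foxp3 (2.62 and 11.6 FPKM on average) held most of the CD4 T-cell sum. Cd4 itself (0.662 and 3.93 FPKM) passed the filter only through the enriched fraction.

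Of 9 neutrophil and granulocyte progenitor markers limma called 0, adjusted or unadjusted, and with the block 2 higher and 1 lower. Their sum was highest in replicate 2 of both fractions (3420 and 3880 FPKM), where Ccl9 and Ccl6 were highest too. So were the macrophage and monocyte (1190 and 1860 FPKM), mast cell and basophil (260 and 597 FPKM) and NKT and MAIT cell sums. Most of the neutrophil sum was Mpo, Elane, Prtn3 and Ctsg. In the flow-through Ltf, Camp, Ngp and S100a9 were instead highest in replicate 3. B-cell markers (1 of 6 higher, 3 with the block) summed to 25.9 to 67.5 and 42.8 to 91.0 FPKM. Erythroid markers (0 higher and 1 lower of 6, and 5 lower with the block) summed to 819 to 2560 and 183 to 1240 FPKM and were highest in replicate 1 of both fractions. Of 5 melanoma markers 4 were listed at 0 in every library, and Pmel did not exceed 0.839 FPKM. The CD8 T-cell markers (1 of 8 higher, Zap70) changed less than the ligands, with a median log2 fold change of 0.38. The part of these cell types in the ligand levels was not tested.

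**Figure D5:**
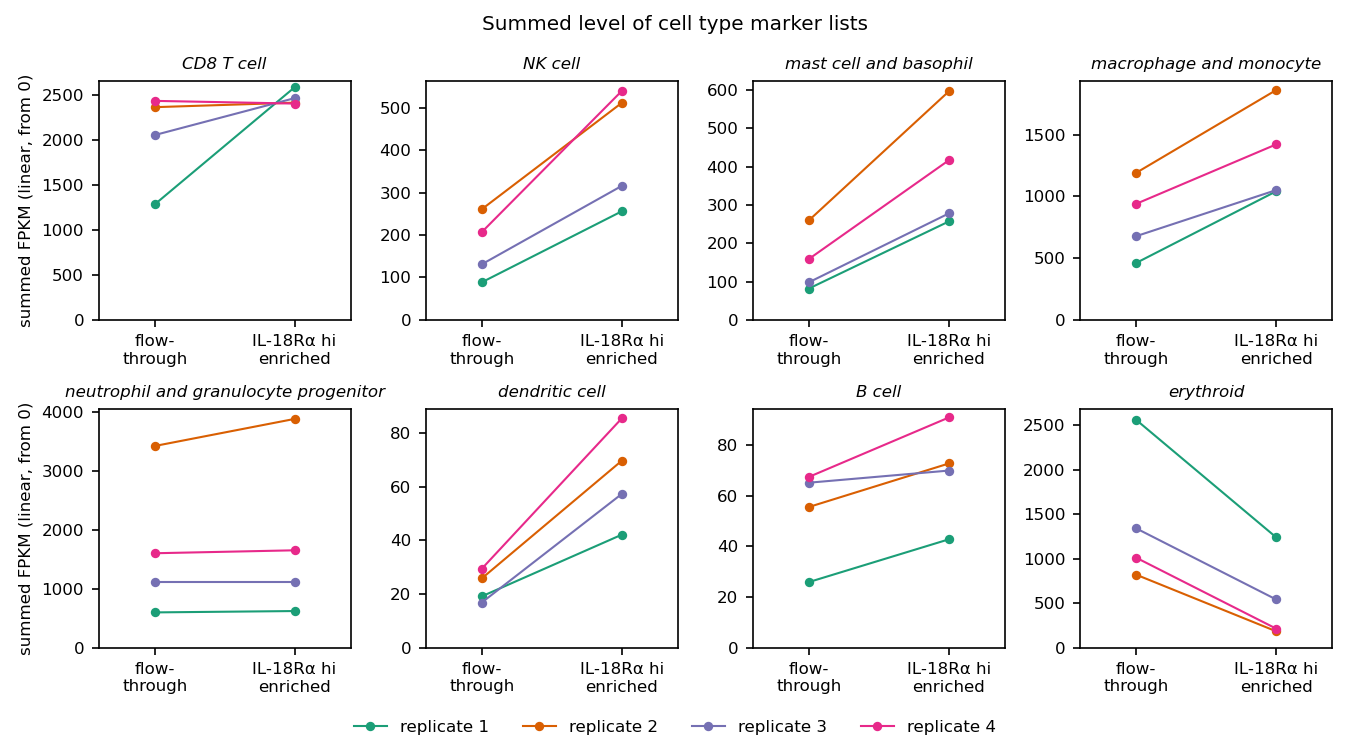
Summed FPKM of 8 cell type marker lists (y axes, linear, from 0) in the flow-through and the IL-18Rα hi-enriched libraries, with lines joining libraries of 1 replicate number. The NK-cell sum, mostly Tyrobp and Fcer1g, rises in all 4 replicate numbers. The CD8 T-cell sum is lowest in flow-through replicate 1 (1280 FPKM), and the neutrophil sum stays apart by replicate number rather than by fraction.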

How the data were processed

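Per the labels, poly(A) RNA of 8 en-T cell libraries was sequenced as stranded paired ends. The authors mapped reads to mm10 with TopHat and computed the deposited FPKM values with Cufflinks 2.1.1, with multi-read and fragment-bias correction and other options at their defaults, which do not use strand, so overlapping opposite-strand genes are uncertain. The annotation release and TopHat version are not given in the sources used here. FPKM holds no read counts, so depth is unknown. Libraries summed to 656715 to 711678 FPKM, with 11706 to 12288 genes of at least 1 FPKM, and correlated at 0.888 to 0.987, so no library was a duplicate. GENCODE M21 (GRCm38), the source of coordinates, held 98.9% of the gene identifiers, 27 date-like names were replaced from it, and 252 entries share a name.

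Groups and replicate numbers came from the sample labels, and each fraction had n = 4 libraries. Differences were tested with limma 3.58.1 (R 4.3.3) on log2(FPKM + 1) with a variance trend and no block, for genes averaging at least 1 FPKM over the 8 libraries, with Benjamini-Hochberg adjustment and a threshold of 0.05. The fit was tested on simulated data. Ratios and single levels were set against the 70 arrangements of the libraries in an exact two-sided permutation test, whose smallest p is 0.0286. These arrangements ignore the pairing by mouse, and a sign-flip test within the 4 mice cannot give a p under 0.125. Per the labels, each mouse gave both fractions. Libraries with the same number deviated together from their group means (correlations 0.31 to 0.66, other numbers -0.60 to 0.41), so the number was taken as the mouse, and a fit with it as a block was run beside the other. T-cell scaling divided each library by the geometric mean of 8 CD8 T-cell genes. Other alternatives were pseudocounts of 0.1 and 5, no filter or a minimum of 5 FPKM, median-ratio scaling, no variance trend and leaving out each library. Leaving out both libraries of replicate number 1 was chosen after seeing the data. Named genes were all ligands of the group, 6 of their receptors, the tested further ligands and the 3 nearest genes of each called ligand. Some items are not reported here. The members and gene lists were chosen with earlier results of these data known. P-values cover the spread between the libraries of these 4 mice.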

Additional observations from a re-analysis of the deposited data

Results flagged for a closer look

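Of 32 groups of 4 libraries examined among the ligands and 6 receptors, 1 passed Dixon's test for a single outlying library (95% critical value), and about 1.6 would do so by chance. This was Cxcr3, which reached 195 FPKM in IL-18Rα hi-enriched replicate 1 while the remaining enriched libraries lay between 169 and 171 FPKM, and Cxcr3 was higher in the enriched fraction in each fit that left out 1 library. None of the ligands had such a library.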

How the results depend on the processing

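Among single ligands, 113 of 152 values kept their direction and side of the threshold, 30 lost the call, 9 gained it and 0 changed direction, and Ccl1 kept its call under all 17 alternatives. With the replicate block 2705 genes were higher and 2763 lower, against 1720 and 1664 without it, and among the ligands it changed the calls of Xcl1 and Ccl9 and no other. T-cell scaling gave 529 higher and 1082 lower genes and 4 higher ligands, and T-cell scaling with the replicate block gave 619 higher genes. Leaving out 1 library at a time gave 1107 to 1813 higher and 939 to 1780 lower genes, and 1 to 8 higher ligands. The ligand count was 3 when flow-through replicate 3 was left out, and 2, 4 and 1 when enriched replicates 2, 3 and 4 were, and the gene counts were lowest without the same libraries. Without both libraries numbered 1 it was 7, as in all libraries. With all genes above 0 tested 5 ligands were higher, Cxcl16 among them (log2 fold change 0.86, adjusted p = 0.020), while Ccl3, Ccl4 and Ccl5 were no longer past the threshold. Of the further ligands, 1 (Cx3cl1) was then higher and 1 (Ccl17) lower, 1 (Ccl2) was higher without enriched replicate 1, and 1 (Pf4) was lower under T-cell scaling as well as without flow-through replicate 1, against 0 otherwise. These genes were named after their values were seen. With a minimum mean of 5 FPKM, 3 receptors were tested and higher, against 5. The difference in the log2 ratio of Cxcl10 to Cxcl9 was -1.37 with a pseudocount of 0.1 and 0.14 with one of 5, against -0.341, and that of Ccl4 to Ccl3 ran from -0.146 to 0.0601 over the fits that left out 1 library, at 0.00615 with flow-through replicate 2 left out and 0.0601 with enriched replicate 4 left out. For Ccl6 to Ccl9 the range was 0.596 to 0.959, and the highest value, without flow-through replicate 3, passed the unadjusted threshold (exact permutation p = 0.0286). The causes of these shifts were not tested. Depth was unknown, so the precision of levels under 1 FPKM, such as those of Cxcl16, could not be given.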
